A study of Homo sapiens with 4 samples.

Results

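The 41 genes described here act in homologous recombination, in the Fanconi anemia pathway for DNA interstrand crosslinks and in the checkpoint that signals DNA damage. They were taken by gene symbol from a list of known pathway members, and each symbol was matched to 1 of the 60671 Ensembl gene IDs of the count table. All 41 were found, and all 41 had enough reads to be tested. RNA was sequenced from SK-N-BE(2), a human neuroblastoma cell line with MYCN amplification, after lentiviral delivery of a short hairpin RNA. The control group received the hairpin labelled shNC and the knockdown group hairpin RNA against METTL14 (shMETTL14). METTL14 encodes a partner of METTL3 in the complex that methylates adenosine in RNA to N6-methyladenosine (m6A). There were 2 libraries in each group. The study made its knockdown lines with pLKO.1 vectors and puromycin selection. The labels do not say which METTL14 hairpin each shMETTL14 library carried, or whether both carried the same hairpin. No rescue was among the libraries. The labels call the libraries of a group replicates without saying whether they came from separate cultures, so the p-values measure the spread between these libraries, which may be technical.

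Homologous recombination mends a double-strand break by copying the sister chromatid. The MRE11-RAD50-NBN complex and RBBP8 (CtIP) trim the broken ends, BRCA1 with BARD1, PALB2 and BRCA2 prepares the single strand for exchange, RAD52, RAD54L and the complexes of RAD51B, RAD51C, RAD51D, XRCC2 and XRCC3 assist that exchange, and BLM with RMI1 and RMI2 takes the joined molecules apart. At an interstrand crosslink, the Fanconi core complex with the E2 enzyme UBE2T attaches ubiquitin to FANCD2 and FANCI, and nucleases and recombination proteins follow. ATM answers to double-strand breaks and ATR, with ATRIP and TOPBP1, to stretches of single-stranded DNA, each passing the signal on to a checkpoint kinase, CHEK2 or CHEK1. In neuroblastoma, ATM lies on the long arm of chromosome 11 that many tumors lose, and BARD1 is a known susceptibility gene.

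The libraries held between 18925786 and 19886214 reads assigned to genes, and 16309 genes passed the filter on low counts. METTL14 had 753 and 754 reads in the shNC libraries and 303 and 321 in the shMETTL14 libraries, which left 41.7% of the control level (log2 fold change -1.26 ± 0.0832 SE, adjusted p = 3.64e-11). Its level in each library followed the label. All 10 markers of noradrenergic neuroblastoma on a fixed list had at least 1484 reads in every library, whereas no leukocyte marker exceeded 40 reads and no Schwann cell marker exceeded 70. Of 8 fibroblast or mesenchymal markers, LUM, THY1 and PDGFRB had at least 1977 reads in every library, DCN, COL3A1 and COL1A1 had between 163 and 741, COL1A2 had at most 18 and PRRX1 at most 3. Among the 7 that could be tested 2 rose and 3 fell, and the summed level of all 8, 658 and 657 CPM in the shNC libraries, was 776 and 788 CPM in the shMETTL14 libraries. THY1 went from 4348 and 4199 reads to 7112 and 7045, and COL3A1 from 610 and 532 to 330 and 328. Their part in the values of the 41 genes was not tested.

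Among the 41 genes, 11 rose and 16 fell after METTL14 knockdown, and 14 did not pass the test. The test was edgeR's quasi-likelihood F-test on the raw counts, with Benjamini-Hochberg adjusted p-values computed across every gene tested. Genes below 0.05 are those called. Called members made up 65.9% of the list, beside 52.5% of all genes tested. Members that rose were 26.8%, beside 27.2% of all genes, and members that fell were 39.0%, beside 25.3% of all genes. The read counts of the members spanned 114 to 4063 per library, and among the 9752 genes within the members' range of mean expression 62.4% were called, 36.1% higher and 26.3% lower. No test of the list against other genes was made.

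The median log2 fold change of the 41 members was -0.0071, beside -0.00095 over all genes tested, and the median of the absolute changes was 0.18 for the members, 0.30 for all genes and 0.25 for the 9752 genes in the members' range of expression. Only NBN, RMI2, RAD50 and RAD52 passed the test with a change of at least 1.5-fold, all 4 of them lower. They were 9.76% of the members, beside 18.8% of all genes in either direction and 11.4% of all genes lower. Within the members' range of expression these shares were 14.3% and 6.86%, so the share of lower members was below that of all genes and above that of the genes in this range. No member reached a 1.5-fold increase at any p, by edgeR or by DESeq2. Of all genes 7.44% were called by edgeR with an increase of at least that size, and of those in the members' range of expression 7.45%. The greatest increase of a member was that of FANCA at 0.48 on the log2 scale. The 2 shNC and 2 shMETTL14 libraries did not overlap in scaled counts for 32 members, 78.0% of the list, beside 75.5% of all genes.

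How many members passed depended on the tool and on the scaling of libraries. DESeq2 called 14 of the 41, 6 higher and 8 lower, where it called 33.9% of all genes. These 14 genes were also called, in the same direction, under all 7 other fits of the 4 libraries, DESeq2 included, and in all 4 fits that left out 1 library: BRCA1, RAD52, RAD50, MRE11, NBN, RMI2, FANCL and ATM lower, and XRCC3, RAD54L, RBBP8, FANCA, FANCG and UBE2T higher. The other 13 calls, those of BARD1, BRCA2, BRIP1, RAD51C, XRCC2, WRN, RMI1, FANCC, FANCF, FANCD2, CHEK1, CHEK2 and TOPBP1, were lost with DESeq2 and in at least 1 fit without a library. With upper quartile scaling 6 members were called higher and 19 lower, and with library size alone 7 higher and 18 lower, so higher calls were 24.0% and 28.0% of all member calls in place of 40.7%. Over all genes the share of higher calls also fell under these scalings, to 41.7% and 44.9% from 51.8%.

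**Figure D1:**
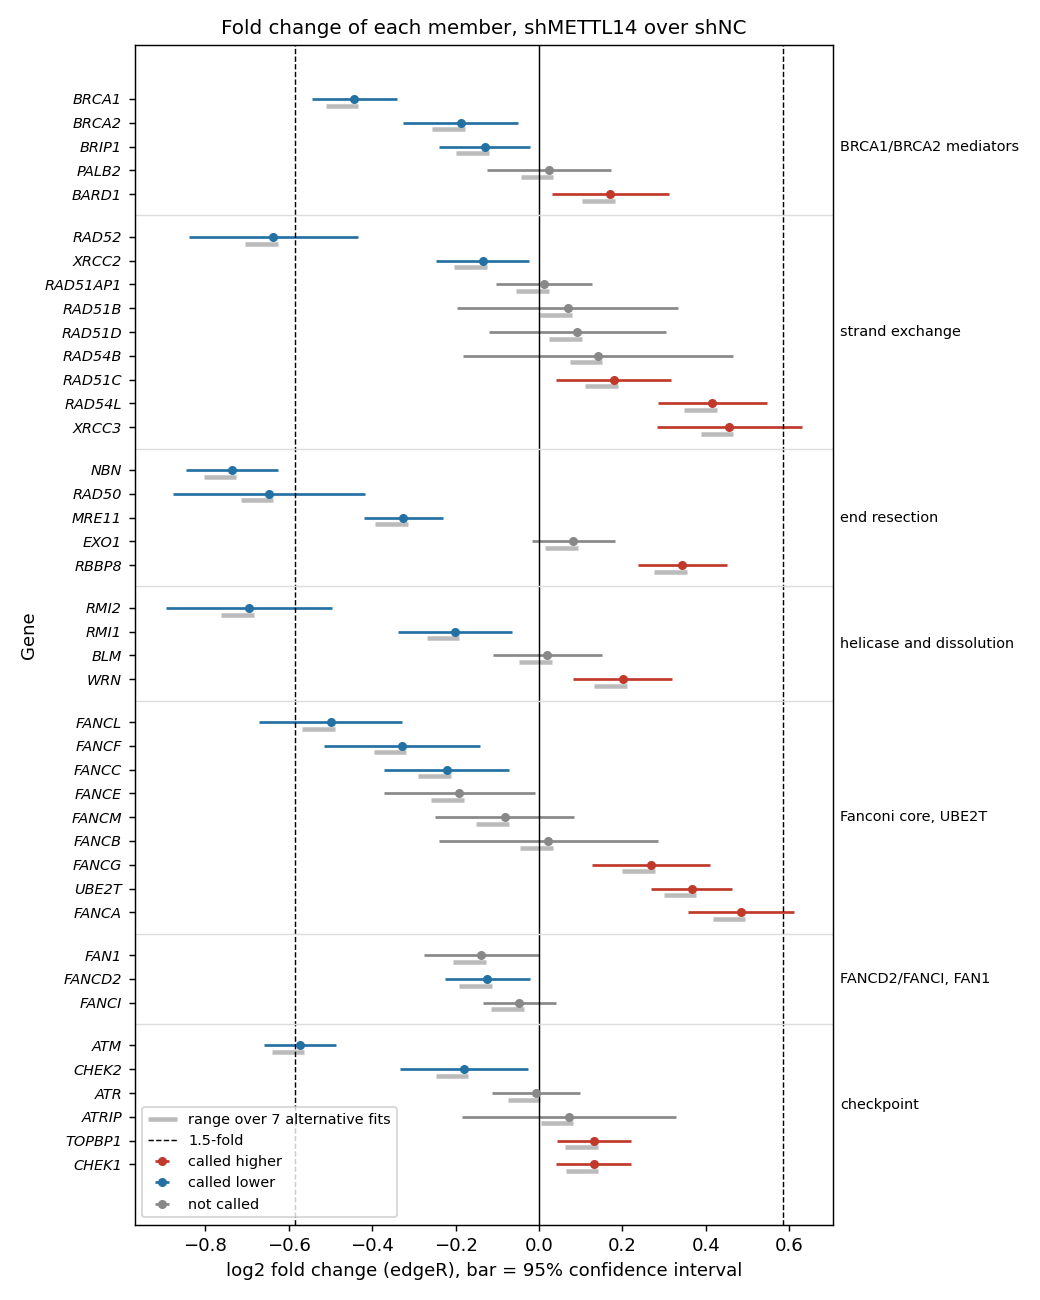
Log2 fold change of each of the 41 genes, shMETTL14 over shNC, on the horizontal axis, with genes grouped by role on the vertical axis. Points are edgeR estimates from 2 libraries per group, bars are 95% confidence intervals, red marks genes called higher, blue genes called lower and grey genes not called, thick grey bars give the range over 7 other fits, and dashed lines mark 1.5-fold. The 4 genes beyond 1.5-fold, NBN, RMI2, RAD50 and RAD52, all lie to the left.

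Of the 5 genes of end resection, the step that exposes single-stranded DNA, 3 fell and 1 rose. The 3 that fell encode the MRE11-RAD50-NBN complex, the first sensor of a broken end. NBN (ENSG00000104320, chr8:89933336-90003228), the subunit that recruits ATM, had 1704 and 1634 reads in the shNC libraries and 1026 and 965 in the shMETTL14 libraries. Its level fell to 60.0% of the control (log2 fold change -0.74 ± 0.0529 SE, adjusted p = 1.52e-10), the greatest fall of the 41 genes, and the groups lay far apart. RAD50 (ENSG00000113522, chr5:132556019-132646344), the ATPase that holds the complex together, had 300 and 313 reads against 201 and 188, which was 63.8% of the control (-0.65 ± 0.111 SE, adjusted p = 4.03e-05). Its counts need care, because 79.7% of its exon bases are also annotated to another gene on the same strand, AC116366.3. That gene had 0 reads in all 4 libraries, which does not show that RAD50 lost no reads to the overlap. Reads that fit both genes may have been set aside as ambiguous. MRE11 (ENSG00000020922, chr11:94415578-94493908), the nuclease of the complex, was the most abundant of the 3 by counts, with 2483 and 2333 reads against 1893 and 1925. It fell less than NBN, to 79.8% of the control (-0.33 ± 0.0454 SE, adjusted p = 3.04e-06), and the 95% confidence intervals of NBN (-0.85 to -0.63) and MRE11 (-0.42 to -0.23) did not overlap, although the difference itself was not tested.

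RBBP8 (ENSG00000101773, chr18:22798261-23026488), which activates the MRE11 nuclease, went the other way. It had 1771 and 1796 reads in the shNC libraries and 2380 and 2121 in the shMETTL14 libraries, a rise to 127% of the control (0.34 ± 0.0516 SE, adjusted p = 7.73e-06). The shMETTL14 libraries differed from each other more for RBBP8 than for the complex subunits, at 122 and 110.2 CPM (read counts scaled to a common library size with edgeR's TMM factors), but both lay above the controls at 88.9 and 93.8. EXO1, the exonuclease that extends resection, did not pass (0.08, 95% confidence interval -0.02 to 0.18), although its 4 libraries kept apart by group at 80.5 and 80.7 CPM against 85.0 and 85.7.

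The 5 genes around BRCA1 and BRCA2 did not move together: 3 fell, 1 rose and PALB2 did not pass. BRCA1 (ENSG00000012048, chr17:43044295-43170245), the ubiquitin ligase that steers breaks toward recombination, had 1933 and 1936 reads in the shNC libraries and 1447 and 1381 in the shMETTL14 libraries. Its level fell to 73.5% of the control (-0.44 ± 0.049 SE, adjusted p = 1.17e-07), and the groups did not overlap. BARD1 (ENSG00000138376, chr2:214725646-214809711), the obligate partner of BRCA1, had 756 and 777 reads against 876 and 840, a rise to 113% of the control (0.17 ± 0.0674 SE, adjusted p = 0.0375) that DESeq2 did not call (adjusted p = 0.207). BARD1 kept its call in only 2 of the 7 other fits of the 4 libraries, those with RLE scaling and with a replicate block. The estimates of the partners thus had opposite signs, but that of BARD1 was small and its call unstable. BRCA2, a mediator of strand exchange, had 934 and 908 reads against 844 and 763 (-0.19, adjusted p = 0.0213), and BRIP1, a helicase that binds BRCA1, had 1466 and 1387 against 1339 and 1251 (-0.13, adjusted p = 0.0414). The groups did not overlap for either gene, and neither was called by DESeq2 (adjusted p = 0.186 and 0.28). For PALB2, which bridges BRCA1 and BRCA2, the estimate was 0.02 with an interval of -0.12 to 0.17, and the groups overlapped.

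Of the 9 genes of strand exchange 3 rose, 2 fell and 4 did not pass. RAD52 (ENSG00000002016, chr12:912077-990053), which anneals complementary single strands, had 400 and 403 reads in the shNC libraries and 250 and 263 in the shMETTL14 libraries. It fell to 64.3% of the control (-0.64 ± 0.0973 SE, adjusted p = 9.89e-06) and was the only 1 of the 4 genes past 1.5-fold that overlapped no other protein-coding gene in the annotation. NBN and RMI2 overlapped such genes but shared no exon bases with them. RAD54L (ENSG00000085999, chr1:46247688-46278473), a motor protein that remodels the duplex during strand invasion, had 794 and 767 reads against 1063 and 1007. It rose to 133% of the control (0.42 ± 0.0628 SE, adjusted p = 8.37e-06), while its relative RAD54B, at 114 and 124 reads against 126 and 135, did not pass (0.14, interval -0.18 to 0.46). The 2 intervals overlap, so the pair is not shown to differ.

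Of RAD51B, RAD51C, RAD51D, XRCC2 and XRCC3, which work in shared complexes during strand exchange, only XRCC3 was called in every fit. XRCC3 (ENSG00000126215, chr14:103697609-103715504) had 476 and 540 reads in the shNC libraries and 685 and 701 in the shMETTL14 libraries, a rise to 137% of the control (0.46 ± 0.0836 SE, adjusted p = 8.96e-05). In the annotation 76.7% of its exon bases are shared with KLC1, a kinesin light chain gene on the opposite strand, which also rose (605 and 584 reads against 759 and 796, log2 fold change 0.40, adjusted p = 9.89e-05), and whether the counts of the pair were kept apart by strand is not given in the sources used here. RAD51C, the partner of XRCC3, had 783 and 724 reads against 855 and 840 (0.18, adjusted p = 0.0282), and XRCC2 had 1460 and 1353 against 1320 and 1225 (-0.13, adjusted p = 0.0389). Each kept its groups apart but lost its call with DESeq2 (adjusted p = 0.178 and 0.268). RAD51B (0.07, interval -0.20 to 0.33), RAD51D (0.09, interval -0.12 to 0.31) and RAD51AP1 (0.01, interval -0.10 to 0.13), did not pass.

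Among the 4 genes that unwind or dissolve joined DNA, RMI2 (ENSG00000175643, chr16:11249619-11381662), a scaffold subunit of the BLM complex, changed most. It had 415 and 419 reads in the shNC libraries and 255 and 257 in the shMETTL14 libraries, so the libraries of each group nearly coincided, and it fell to 61.8% of the control (-0.69 ± 0.0957 SE, adjusted p = 2.60e-06). RMI1, which binds RMI2 in the same complex, had 890 and 904 reads against 782 and 769 (-0.20, adjusted p = 0.0139, by DESeq2 0.15). Its fall was smaller, with an interval of -0.34 to -0.06 that did not reach that of RMI2 (-0.89 to -0.50), a difference not tested in itself. BLM itself, the RecQ helicase of the complex, had 980 and 1041 reads against 1013 and 1024, overlapping groups and an estimate of 0.02 (interval -0.11 to 0.15). WRN, another RecQ helicase, had 1152 and 1039 reads against 1294 and 1207 (0.20, adjusted p = 0.0057, by DESeq2 0.069).

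The 9 genes of the Fanconi core and its E2 enzyme split evenly, with 3 higher, 3 lower and 3 not called. FANCA (ENSG00000187741, chr16:89737549-89816657), a core subunit and the gene most often mutated in Fanconi anemia, had 829 and 826 reads in the shNC libraries and 1139 and 1162 in the shMETTL14 libraries. Its rise to 139.9% of the control (0.48 ± 0.0608 SE, adjusted p = 7.11e-07) was the greatest of the 41 genes. FANCG, which binds FANCA within the core, had 791 and 713 reads against 938 and 861 and rose to 120.4% of the control (0.27 ± 0.0683 SE, adjusted p = 0.00227). UBE2T (ENSG00000077152, chr1:202331657-202341980), the E2 enzyme that supplies the ubiquitin, had 1589 and 1530 reads against 1989 and 2006 and rose to 129% (0.37 ± 0.0471 SE, adjusted p = 9.90e-07). The ligase that receives it went the other way: FANCL (ENSG00000115392, chr2:58159243-58241372) had 635 and 672 reads against 481 and 438 and fell to 70.7% (-0.50 ± 0.0823 SE, adjusted p = 2.54e-05). In each of these 4 genes the groups were well apart.

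FANCF, the adaptor of the core, had 462 and 482 reads against 359 and 388 (-0.33 ± 0.09 SE, adjusted p = 0.00409), and FANCC had 963 and 807 against 746 and 761 (-0.22 ± 0.0726 SE, adjusted p = 0.014). The 2 shNC libraries of FANCC differed by more than the gap between the lower of them and the shMETTL14 libraries, at 48.3 and 42.1 CPM against 38.1 and 39.5. DESeq2 called neither (adjusted p = 0.0783 and 0.133). FANCE was not called (-0.19, interval -0.37 to -0.01, adjusted p = 0.0706) and was called lower with upper quartile scaling or library size alone. FANCM, the translocase that brings the core to a crosslink, had an estimate of -0.08 (interval -0.25 to 0.09), and FANCB, which is X-linked, had 201 and 223 reads against 196 and 232 and an estimate of 0.02 (interval -0.24 to 0.29).

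The DNA in front of the transcription starts of FANCA, FANCC and XRCC3 is shown, as RefSeq gives it for GRCh38.p14, 5′ to 3′ on the strand of the gene. The genes were among the called members with the largest changes in each direction whose stretch was long enough before any exon. XRCC2, BRIP1 and RAD54L met the same rule and are not shown. Their stretches held 0, 4 and 1 of the words marked below. The stretches start 250 bases before the start and hold no annotated exon. That of FANCC (chr9:95317710-95317959, minus strand) lies before a start inside the gene as annotated, and those of FANCA (chr16:89816658-89816897, minus strand) and XRCC3 (chr14:103715505-103715701, minus strand) stop short of the start, where an annotated exon begins. Capitals mark, on either strand, 4 words of E2F type (TTTCCCGC, TTTCGCGC, TTTGCCGC and TTTGGCGC), the word TTTGAA of cell cycle homology regions, and CCAAT.
FANCA: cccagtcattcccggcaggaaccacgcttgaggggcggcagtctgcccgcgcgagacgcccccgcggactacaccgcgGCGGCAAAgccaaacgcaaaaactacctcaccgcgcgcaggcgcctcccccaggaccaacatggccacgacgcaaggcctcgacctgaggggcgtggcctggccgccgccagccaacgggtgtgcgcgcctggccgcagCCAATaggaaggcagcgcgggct
FANCC: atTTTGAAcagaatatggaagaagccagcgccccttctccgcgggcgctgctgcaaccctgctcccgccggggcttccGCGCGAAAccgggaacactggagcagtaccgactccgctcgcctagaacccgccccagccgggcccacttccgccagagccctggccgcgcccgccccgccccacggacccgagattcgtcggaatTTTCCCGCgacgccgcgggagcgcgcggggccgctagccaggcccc
XRCC3: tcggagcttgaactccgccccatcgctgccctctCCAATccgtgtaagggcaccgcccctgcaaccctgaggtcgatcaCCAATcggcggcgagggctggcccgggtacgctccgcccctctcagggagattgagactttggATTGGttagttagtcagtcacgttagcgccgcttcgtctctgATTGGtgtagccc

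The FANCC stretch held a pair of E2F words and 1 TTTGAA, that of FANCA 1 E2F word and 1 CCAAT, and that of XRCC3 4 matches to CCAAT and none to the other words. Windows from 250 bases before to 50 bases after a start were found for 36 of the 41 genes, the exceptions being FANCI, WRN, NBN, RAD54B and RMI2. An E2F word was present in 7 of the 36 genes (19.4%): EXO1, FANCA, FANCC, FANCD2, RMI1, TOPBP1 and XRCC2. Of these FANCA and TOPBP1 rose, FANCC, FANCD2, RMI1 and XRCC2 fell and EXO1 was not called. The share was 6.55% of tested genes and 3.99% of all genes with a window. Counted per window, it was 13.7% for the members, 4.79% for tested genes and 3.31% for all. TTTGAA was found in 4 of the 36 (11.1%, beside 13.7% of tested genes), and CCAAT in 17 (47.2%, beside 43.0%). A match is a run of letters and not a site shown to be bound.

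The 3 genes that act after the core changed little. FANCD2, which carries the ubiquitin at a crosslink, had 1822 and 1676 reads in the shNC libraries and 1590 and 1599 in the shMETTL14 libraries (-0.12 ± 0.0488 SE, adjusted p = 0.0383, by DESeq2 0.26). Its partner FANCI had 3234 and 3245 reads against 3129 and 3105 and was not called (-0.05, interval -0.13 to 0.04). With upper quartile scaling FANCI was called lower (-0.11). FAN1, a nuclease recruited by FANCD2, had 1215 and 1056 reads against 1093 and 957, with overlapping groups (-0.14, adjusted p = 0.085). It was called lower with upper quartile scaling, library size alone, the stricter filter on counts or a replicate block.

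Of the 6 checkpoint genes 2 rose, 2 fell and 2 did not pass. ATM (ENSG00000149311, chr11:108222484-108369102), the kinase activated at double-strand breaks by the MRE11-RAD50-NBN complex, had the most reads of the 41 genes in the shNC libraries, with 4063 and 3883. In the shMETTL14 libraries it had 2690 and 2615, fewer than FANCI and TOPBP1. Its level went from 203 ± 0.754 CPM to 137 ± 1.07 CPM (SD, n = 2 each), or 67.2% of the control (-0.57 ± 0.0413 SE, adjusted p = 1.61e-10). That is just short of the 1.5-fold limit, and ATM passed it in 3 of the other fits. CHEK2, the kinase that ATM activates, had 696 and 704 reads against 623 and 605 (-0.18, adjusted p = 0.045, by DESeq2 0.269).

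In the ATR branch ATR and ATRIP did not pass, while TOPBP1 and CHEK1 rose. ATR had 1387 and 1357 reads in the shNC libraries and 1366 and 1347 in the shMETTL14 libraries, with overlapping groups and an estimate of -0.01 (interval -0.11 to 0.10), which does not reach the interval of ATM (-0.66 to -0.49), though the difference was not tested. ATRIP, the subunit that ties ATR to single-stranded DNA, had 202 and 240 reads against 244 and 218 (0.07, interval -0.18 to 0.33). TOPBP1, the activator of ATR, had 2626 and 2513 reads against 2800 and 2791 (0.13, adjusted p = 0.0134), and CHEK1, its target kinase, had 2525 and 2438 against 2685 and 2717 (0.13, adjusted p = 0.0142). Their levels were 109.5% and 109.6% of the control, and DESeq2 called neither (adjusted p = 0.0818 and 0.0872).

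**Figure D2:**
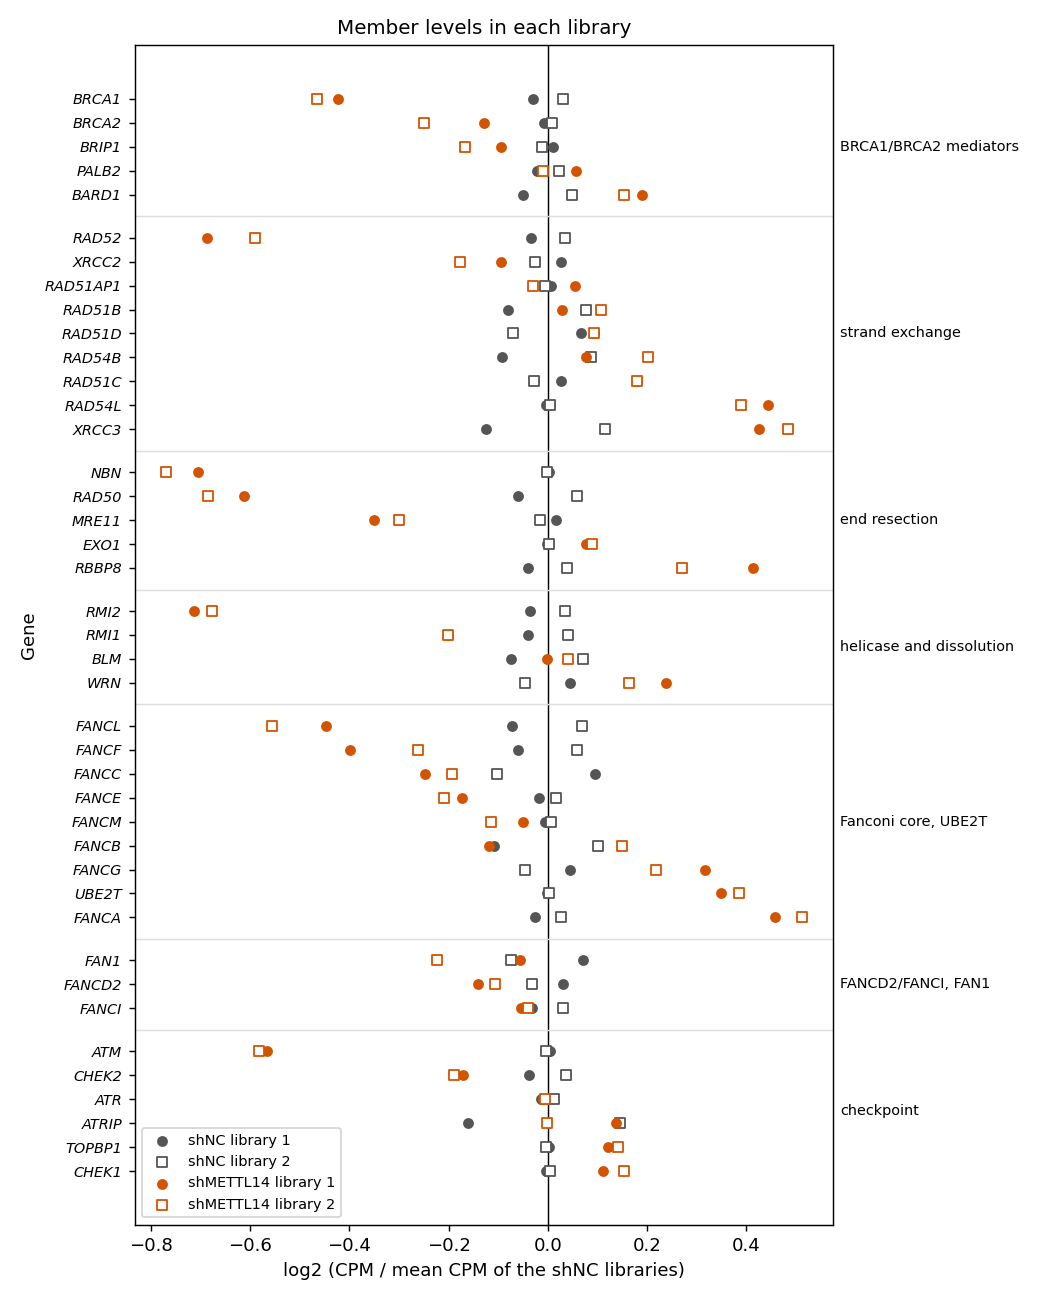
Level of each of the 41 genes in each library, as log2 of its CPM over the mean CPM of the 2 shNC libraries, with genes grouped by role. Grey symbols are shNC, orange symbols shMETTL14, circles replicate 1 and squares replicate 2. Both orange symbols lie apart from both grey symbols in 32 genes, while in 9, among them PALB2, BLM, ATR and ATRIP, the groups overlap.

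Levels of different genes can be compared only per length. In CPM per kilobase of annotated exon, UBE2T was highest in the shNC libraries at 48.3, followed by RAD51AP1 at 24.0 and FANCI at 21.4, and the median of the 41 genes was 8.28. The lowest were RAD54B at 1.15, RAD51B at 1.21 and RAD51D at 1.27, with RAD50 at 1.61 among the low ones. UBE2T stood further apart in the shMETTL14 libraries, at 62.3 CPM per kilobase. ATM, first by read count in the shNC libraries, was near the middle on this scale at 8.48, since its exons sum to many kilobases. Exon lengths are the union of all annotated exons, which lowers the value of genes with many alternative exons, and reads shared with another gene lower it further.

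**Figure D3:**
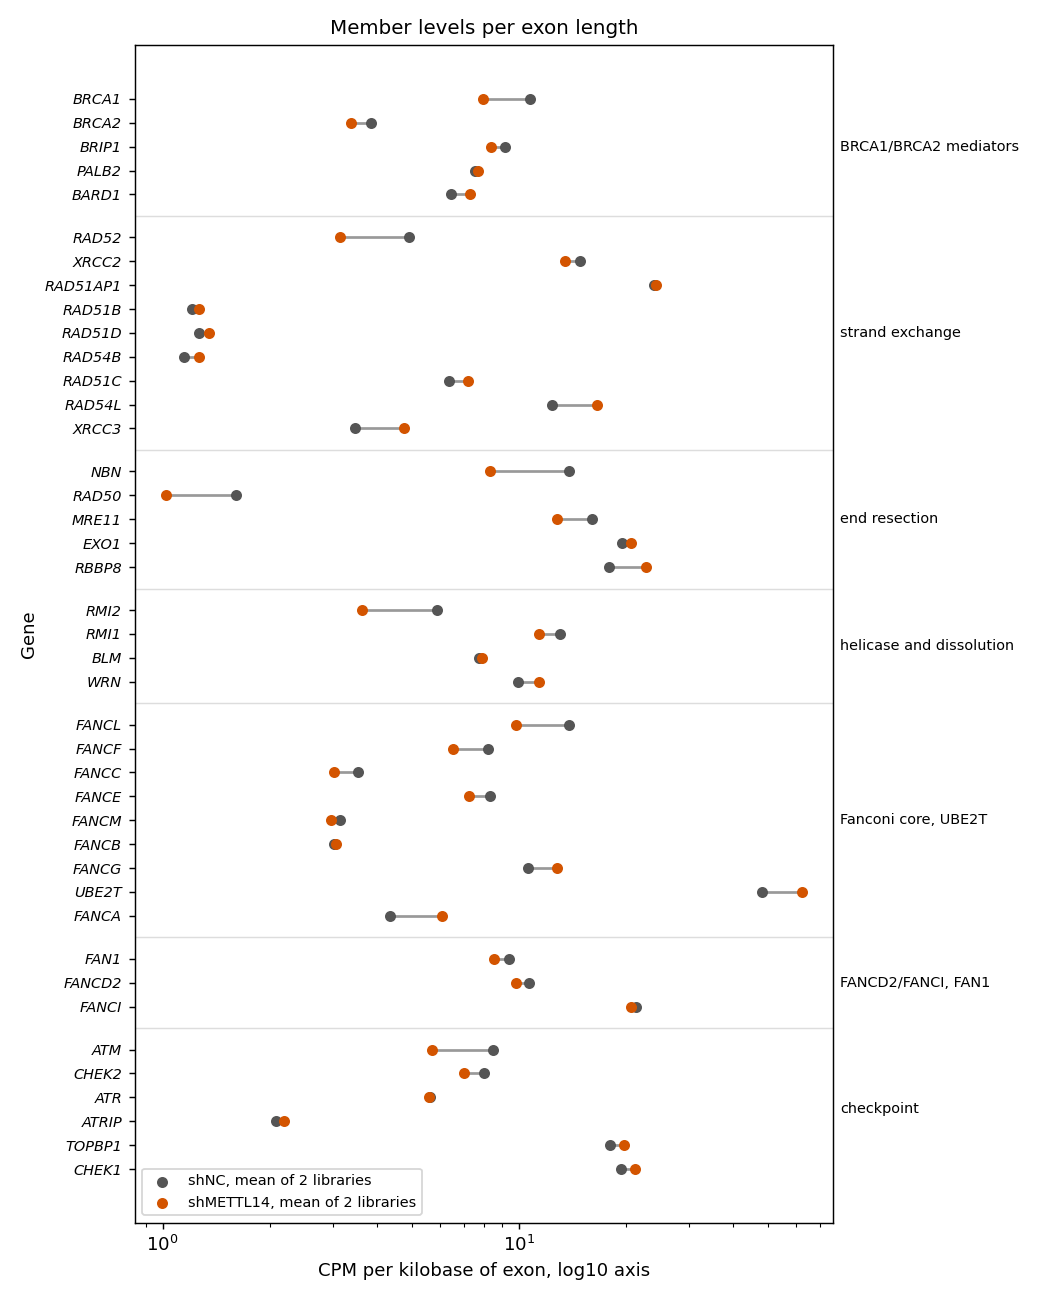
CPM per kilobase of exon for each of the 41 genes on a log10 axis, grouped by role. Grey points are means of the 2 shNC libraries and orange points means of the 2 shMETTL14 libraries, joined by a line. UBE2T lies highest, from 48.3 to 62.3, and RAD54B, RAD51B and RAD51D lie lowest in the shNC libraries.

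Shared annotation limits several of these counts. Of the 41 genes, 18 overlapped another protein-coding gene and 16 shared exon bases with one. More than 20% of the exon bases were shared with another gene in 7: RAD50 and XRCC3, described above, RAD54B (59.1%, mostly with FSBP), ATRIP (27.9%, TREX1), RAD54L (25.1%, LRRC41), FAN1 (24.3%, MTMR10) and FANCA (23.6%, ZNF276). TREX1 had 0 reads in every library, and reads that fit both it and ATRIP may have been set aside as ambiguous. ZNF276 rose with FANCA (log2 fold change 0.24), whereas LRRC41 fell (-0.21) as RAD54L rose. FANCL shares 19.7% with other genes, among them VRK2, which fell from 89 and 74 reads to 25 and 24. MTMR10, the neighbor of FAN1, fell from 397 and 355 reads to 194 and 223. Their part in the member values was not tested. Named pseudogenes exist for CHEK2 (4 of them), FANCD2, MRE11, RBBP8 and RAD51AP1, and reads that fit a gene and its copy may have been dropped. Among the 23 genes that overlapped no other protein-coding gene, 7 rose and 7 fell.

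The transcripts of the members were compared with those of 12832 coding genes tested, using the longest coding transcript of each. The members had a median length of 3420 bases, beside 3151 for all, and a lower GC content, with medians of 42.4% and 49.5%. GGACT, a common form of the word at which m6A is placed, occurred at a median of 0.871 per kilobase in the members and 0.939 in all. The 11 members that rose had a median of 1.10 per kilobase, the 16 that fell 0.849 and the 14 not called 0.715. Over all coding genes the medians were 0.963 for those that rose, 0.894 for those that fell and 0.954 for those not called. Transcripts that fell were longer in both sets, with medians of 4006 bases against 3018 in the members and 3832 against 2816 over all. Coding length alone did not follow this in the members, with medians of 2004 bases for those that fell and 2241 for those that rose. These are descriptions without a test, and m6A itself was not measured in these libraries.

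Other genes of the same pathways were read from lists of known members. Of all genes tested 27.2% rose and 25.3% fell, 52.5% called in total, and these lists were not tested against other genes. Of 28 further recombination genes 7 rose and 4 fell, with a median log2 fold change of 0.08. The share called, 39.3%, was below that of all genes. MCM8, a helicase of recombination, rose from 450 and 393 reads to 737 and 652 (0.73, adjusted p = 2.09e-07), and SEM1, a small partner of BRCA2, rose from 1381 and 1287 to 2028 and 2120 (0.65, adjusted p = 4.89e-10). ABRAXAS1, which brings BRCA1 to ubiquitin chains, fell (-0.57), as did the resolvase GEN1 (-0.31). Of 13 further Fanconi genes 7 rose (53.8%) and 2 fell (15.4%), with a median of 0.27. Increases were led by MAD2L2, a subunit of DNA polymerase zeta and of shieldin (0.56), and CENPX, a partner of FANCM (0.56). REV3L, the catalytic subunit of the same polymerase, fell from 2101 and 2020 reads to 1383 and 1476 (-0.52, adjusted p = 1.72e-08), and WDR48, the partner of the deubiquitinase USP1, fell as well (-0.31).

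End joining, the route that competes with recombination, held 3 genes higher and 6 lower of 20, with a median of 0.01. Its share of higher genes was below the 27.2% of all genes tested, and its share of lower genes above their 25.3%. PAXX, a Ku-binding factor, rose (0.53) and so did RNF8 (0.22), the ligase that ubiquitinates chromatin at breaks. XRCC1 (-0.34) and TP53BP1 (-0.30), which limits resection, fell. Of 15 further checkpoint genes 8 rose and 3 fell, with a median of 0.17. The share called was 73.3%, beside 52.5% of all genes tested. CLSPN, the adaptor that presents CHEK1 to ATR, rose from 1169 and 1019 reads to 2057 and 1981 (0.89, adjusted p = 7.95e-12), and the phosphatase CDC25A rose (0.57) while CDC25C (-0.43) and TIMELESS (-0.19) fell.

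Many genes of recombination are expressed with the cell cycle, so lists of G1/S and G2/M genes were read beside them. Of 31 G1/S genes 26 rose (83.9%) and 2 fell (6.45%), beside 27.2% and 25.3% of all genes tested. Their median was 0.28, and their summed level went from 3669 and 3675 CPM in the shNC libraries to 4528 and 4486 CPM in the shMETTL14 libraries. CCNE1 (1.46) and CCNE2 (1.20), the E cyclins, rose most, and POLA1 (-0.18), the catalytic subunit of DNA polymerase alpha, was among those that fell. Of 25 G2/M genes 2 rose (8.0%), KIF23 (0.11) and CCNA2 (0.10), and 19 fell (76.0%). Their median was -0.18, with summed levels of 6611 and 6701 CPM against 5157 and 5059 CPM. TOP2A (-1.24) and CENPF (-0.73) fell most. For cells with METTL14 knockdown the paper reports a longer G0-G1 phase, measured by flow cytometry, and lower expression of cyclins D1 and E1. Its methods list western blot antibodies against both cyclins. The CCNE1 RNA in these libraries went the other way, and the reason was not tested. In bulk RNA a different share of cells in a phase and a different amount of RNA per cell cannot be told apart, and the part of the cell cycle in the values of the 41 genes was not tested. An E2F word was found in 17 of the 25 G1/S genes that had a window (68.0%), beside 7 of the 36 members.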

How the data were processed

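RNA was sequenced from 2 shNC and 2 shMETTL14 libraries of SK-N-BE(2) cells as 150-bp paired ends. The authors deposited raw read counts per Ensembl gene ID, without normalization, in the layout of an HTSeq count table. The submitters' processing notes name HISAT2 2.1.0, StringTie 1.3.6, HTSeq 0.13.5, edgeR and GRCh38. The annotation release and the strand setting of the counting are not given in the sources used here, so where genes on opposite strands overlap, their reads may be missing or counted for either of them. The 5 lines that name no gene held 19.1% to 19.9% of reads, with 5.01% to 5.32% of reads ambiguous between genes, and were left out. The table held 0 columns of other samples.

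Libraries were scaled by TMM in edgeR 4.0.16 (R 4.3.3). Genes were kept with edgeR's default filter (a count of about 10 in 2 libraries and a total of 15), which left 16309 and set aside 29181 IDs with no read among the rest. The quasi-likelihood F-test was fitted on all genes, with Benjamini-Hochberg adjustment and a threshold of 0.05, and was tested on simulated data first. The biological coefficient of variation was 3.45%. Replicates differed beyond sampling noise, with a mean chi-square per gene of 2.78 for the shNC pair and 2.27 for the shMETTL14 pair. With 2 libraries per group no exact permutation test of a single gene can reach 0.05. Alternatives were DESeq2 1.42.0, RLE, upper quartile and library size scaling, other filters on low counts, a replicate block, leaving out each library, a 2-fold limit, and members free of overlapping genes.

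Coordinates and exon lengths came from GENCODE 29 on GRCh38 and promoter windows from RefSeq on GRCh38.p14. The members, roles and lists were chosen with earlier results of these data known. Besides METTL14 and the 41 members, the genes named from each pathway list were, among those called and averaging a log2 CPM of 2 or more, the 2 that increased most and the 2 that decreased most, and genes that share exons with a member were named for that. A gene that this rule names is not reported here.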

Additional observations from a re-analysis of the deposited data

How the results depend on the processing

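Of the 41 genes, 27 were called. DESeq2 called 14 (6 higher, 8 lower). Library size alone called 7 higher and upper quartile scaling 6, with median log2 fold changes of -0.052 and -0.075. Upper quartile scaling moved the median of all genes by -0.068. The 23 genes that overlapped no other protein-coding gene held 14 calls (7 higher, 7 lower), and 1 past 1.5-fold, RAD52. The 23 that shared no exon with a coding gene and had no named pseudogene, a choice made after seeing the data, held 15 (6 higher, 9 lower). Of these, 3 were past 1.5-fold, NBN, RMI2 and RAD52. At 2-fold 0 of the 41 passed, by edgeR or DESeq2 at any p. The smaller sets follow from fewer genes. The cause of the other differences was not tested.

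Leaving out 1 library at a time, on the assumption that the lone library left varies like the other group, gave 17 to 22 members called, 7 to 10 higher, 10 to 12 lower and 3 to 4 past 1.5-fold, with medians from -0.080 (without shNC replicate 1) to 0.011 (without shNC replicate 2). The lowest count, 17, came without shMETTL14 replicate 2, when BARD1, BRCA2, BRIP1, RAD51C, XRCC2, RMI1, FANCD2, CHEK1, CHEK2 and TOPBP1 lost their calls. Without shMETTL14 replicate 1, 9 calls were lost (BARD1, BRIP1, RAD51C, WRN, RMI1, FANCC, FANCF, FANCD2 and CHEK2), without shNC replicate 1, 5 (BARD1, BRIP1, XRCC2, FANCC and FANCD2), and without shNC replicate 2, 7 (BRCA2, BRIP1, RAD51C, WRN, RMI1, FANCF and CHEK2). RAD52 came to under 1.5-fold without shMETTL14 replicate 1, as did RAD50 without shNC replicate 2. FAN1 gained a call without shMETTL14 replicate 1 or shNC replicate 2.

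No called member changed sign. Estimates near 0 did, none of them called. With library size alone they were -0.0206 (PALB2), -0.0321 (RAD51AP1), -0.0249 (BLM) and -0.0224 (FANCB), and with upper quartile scaling -0.0432, -0.0547, -0.0475 and -0.0450 in that order. RAD51AP1 was -0.0052 when every library had to hold 10 counts, and ATR 0.0033 with no filter. With a library left out they ranged from -0.0058 to 0.0659 (PALB2), -0.0124 to 0.153 (RAD51B), -0.0262 to 0.0630 (RAD51AP1), -0.0558 to 0.0986 (BLM), -0.108 to 0.155 (FANCB), -0.0249 to 0.0109 (ATR) and -0.0796 to 0.236 (ATRIP).

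Deviations from the group means of equally numbered libraries had a correlation of -0.0018 over genes, which are not independent. No pairing by replicate number was seen in this value. With groups of 2 libraries it cannot show that the libraries were unpaired, or that no gene was affected. With the replicate block 28 members were called, 11 higher and 17 lower, among 8926 genes, in place of 8561. No filter on low counts gave 7996 calls over all genes and DESeq2 5556. Groups of 2 libraries are too few to look for outlying libraries.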
